A study of Mus musculus with 6 samples.

Results

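Cell cycle and DNA replication genes were examined in lymphatic endothelial cells of the mouse meninges, the membranes around the brain. The genes were taken by symbol, from families such as the Mcm, Cdc, cyclin, Cdk, Cenp, Orc, Rfc, Anapc and Smc genes plus Birc5 and Mis12, and 43 of the 4233 genes in the deposited table matched. Gene expression had been measured by RNA sequencing in 3 libraries from 5xFAD mice and 3 from WT mice. The 5xFAD mice were hemizygous for transgenes driven by the Thy1 promoter, which is active in neurons, and they deposit amyloid in the brain; the WT mice were their non-transgenic littermates. All mice were male C57BL/6J aged 6 months, and each library came from cells pooled from 10 mice, sorted as DAPI-negative singlets that carried CD31 and podoplanin and lacked the leukocyte marker CD45. The comparison asks whether these genes were expressed at different levels in the 5xFAD and WT cells.

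A dividing cell loads the MCM helicase onto origins bound by the origin recognition complex, copies its DNA with polymerases held by a sliding clamp, and then separates the chromosomes on a spindle attached at kinetochores. Cyclin-dependent kinases drive these steps, Cdc25 phosphatases switch the kinases on by removing inhibitory phosphates, and the anaphase-promoting complex ends mitosis by marking cyclins and other proteins for destruction. Most endothelial cells of adult vessels rest outside the cycle, so transcripts of replication and mitosis genes are usually scarce in them, while cohesin, cyclin D and the transcription kinases that share the Cdk name are also used by resting cells.

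Of the 43 genes, 42 had a mean of at least 10 normalised counts over the 6 libraries and were tested. In 5xFAD cells 3 rose, the phosphatase genes Cdc25a and Cdc25c and the chaperone gene Cdc37l1, and 4 fell, the phosphatase gene Cdc25b, the helicase gene Mcm5, the ribonucleotide reductase gene Rrm1 and the kinetochore gene Mis12. These were 16.7% of the tested members, against 6.36% of all 4152 genes tested (1.88% higher and 4.48% lower; limma on log2(normalised count + 1), Benjamini-Hochberg adjusted p under 0.05). The members were chosen with earlier results of these data known. Shares of members beside all genes, here and below, are therefore a description and not a test. The other 35 did not pass. The median log2 fold change of the 42 was -0.08, beside -0.02 for all genes tested, and 21 members lay above 0 and 21 below. Of the 42, 30 have a direct role in the cycle or in replication, and 6 of the 7 called genes are among those 30. Groups did not overlap for 13 members (5 higher and 8 lower in 5xFAD cells), which is 31% of them, against 18.1% of all genes tested (7.97% higher and 10.1% lower). The fit gives each gene the spread typical of its level. In the linear model with each gene's own spread alone, Cdc25a kept its call (adjusted p = 0.0187). The other 6 had adjusted p from 0.128 to 0.378, beside 0.385% of all genes called (0.0723% higher and 0.313% lower). Cdc25a had no WT read, so its WT spread was 0 in that fit and its fold was set by the pseudocount. On the recovered reads, edgeR called 3 members higher and 3 lower, beside 1.93% and 4.12% of all genes (6.05% in all), and DESeq2 called 5 higher and 6 lower, beside 3.93% and 6.36% (10.3% in all).

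The libraries set limits on these numbers. Libraries held 7960827 to 13255050 recovered whole reads in the listed genes, and the members held 42653 to 58732 of them, or 0.390 to 0.585%. Listed genes without any read numbered 87, 86 and 147 in the 5xFAD libraries, against 26, 25 and 42 in the WT libraries (exact permutation p = 0.1, two-sided, the smallest that 3 against 3 allows); its part in the calls was not tested. Within each genotype, the SD of log2(recovered reads + 1) stayed under 2 for all listed genes, a limit that a gene without reads in a whole genotype meets; no source used here states it, and its part in the shares called was not tested. The defining lymphatic genes were present in every library (Prox1, the master regulator of lymphatic identity, was never under 14913 normalised counts), and the summed level of the 9 lymphatic markers was 224387 to 348539 normalised counts in 5xFAD and 260613 to 297510 in WT libraries. The summed levels of markers of blood endothelium (7 of 10 listed), meningeal fibroblasts (5 of 10), mural cells (3 of 9), leukocytes (1 of 12), neural cells (1 of 9) and blood cells (1 of 7) each overlapped between the genotypes, and of these marker genes only Sox17, of arterial endothelium, passed the test (lower in 5xFAD). In bulk libraries, fewer cells of a type and less RNA per cell cannot be told apart.

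**Figure D1:**
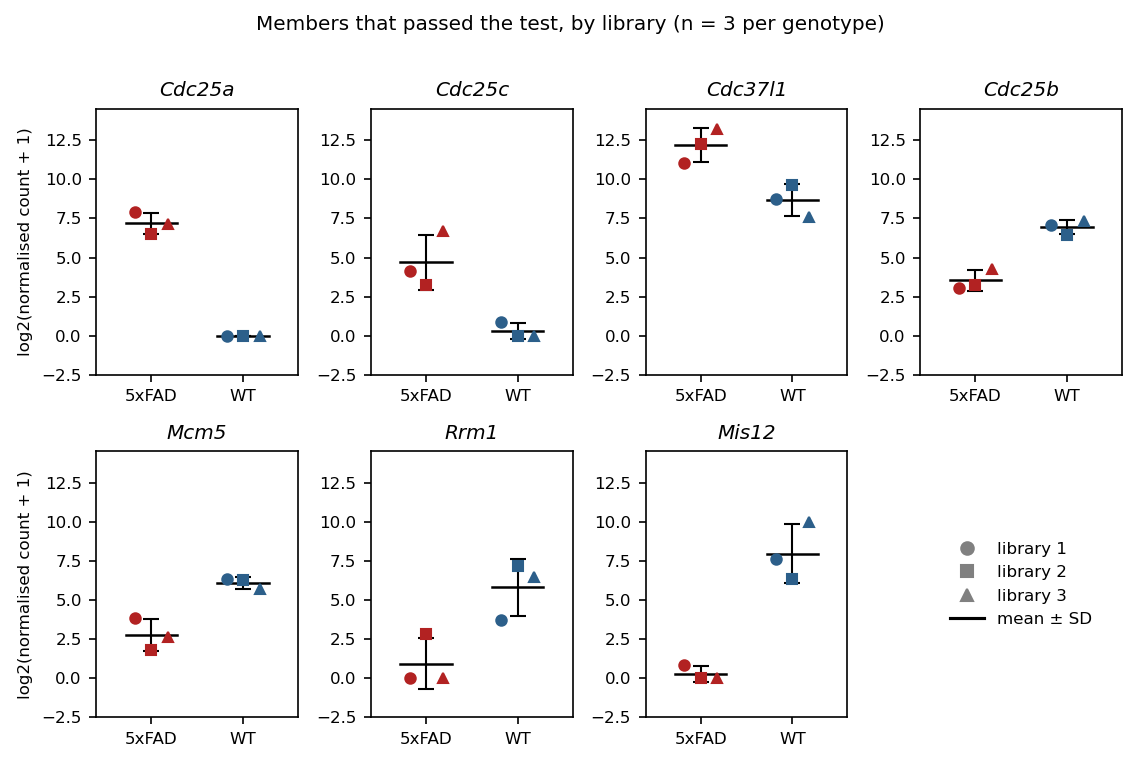
Normalised counts of the 7 members that passed the test, as log2(normalised count + 1), in each of the 3 5xFAD and 3 WT libraries; marks are libraries, and bars are the mean ± SD of the log2 values. The genotypes did not overlap for any of the 7, and the WT libraries of Cdc25a all sit at 0.

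The 3 Cdc25 phosphatase genes changed in different directions. Cdc25a, whose product activates the kinases of S phase entry and later steps, had 237, 91.2 and 141 normalised counts in the 5xFAD libraries, against 0, 0 and 0 in the WT libraries. All 467 reads of it were in 5xFAD cells, and the smallest 5xFAD value was 91.2. The mean of 156 ± 74.3 in 5xFAD cells (SD, n = 3) was at least 178-fold higher than a floor of 3 reads over the WT group (limma adjusted p = 1.12e-09). Leaving out WT 1 lowers the bound to 115, because the floor then rests on fewer libraries. Its log2 fold change of 7.19 is set by the pseudocount, since no WT library has a read, and is no estimate of the fold (4.91 with a pseudocount of 5, 8.18 with 0.5 and 10.3 with edgeR). The gene lies at chr9:109875579-109893895 (GRCm38, + strand).

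Cdc25c, which acts on the mitotic kinase at entry into mitosis, had 16.6, 8.51 and 101 normalised counts in the 5xFAD libraries, against 0.822, 0 and 0 in the WT libraries. The library 5xFAD 3 held most of its 103 reads in 5xFAD cells, and 1 read was found in WT. The ratio of 5xFAD over WT was 127 with a 95% counting interval from 22.2 to 5053. In limma the log2 fold change was 4.40 (SE 1.03; limma adjusted p = 6.57e-04), which as a fold lies under that interval and depends on the pseudocount (2.58 with 5, 5.18 with 0.5); it was 6.62 with edgeR and 7.05 with DESeq2. Without 5xFAD 3 the mean fell under the limit for testing and the ratio was 45.6, without 5xFAD 2 the log2 fold change was 5.11, and without WT 1 the bound was 30.8. Of the 31-base words in its transcripts, 11.8% also occur in Gm3550, a gene on the opposite strand of the same locus, so some of these reads may belong to that gene.

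Cdc25b, the family member that starts the activation of mitotic kinases, had 7.46, 8.51 and 18.6 normalised counts in the 5xFAD libraries, against 135, 86.5 and 158 in the WT libraries. Every 5xFAD library was below every WT library, by a wide gap. The means were 11.5 ± 6.13 in 5xFAD and 127 ± 36.6 in WT cells (SD, n = 3 each), a log2 fold change of -3.41 (SE 1.07; limma adjusted p = 0.0262). The call was lost without WT 1 (limma adjusted p = 0.0738), WT 3 (0.101), 5xFAD 1 (0.113) or 5xFAD 2 (0.0816). The gene lies at chr2:131186949-131198497 (GRCm38, + strand), where its start overlaps Spef1 on the opposite strand, and 1.67% of its 31-base words are shared with that gene.

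Among the genes of origins and the replicative helicase, 1 of 3 tested fell and none rose, beside 4.48% lower and 1.88% higher of all genes tested. With 3 genes this describes Mcm5 and not the role. Mcm5, a subunit of the ring that unwinds DNA at the fork, had 13.3, 2.43 and 5.31 normalised counts in the 5xFAD libraries, against 80.5, 76.2 and 50.4 in the WT libraries. The highest 5xFAD value was well under the lowest WT value. The means were 7.0 ± 5.62 in 5xFAD and 69.1 ± 16.3 in WT cells (SD, n = 3 each). The log2 fold change of -3.34 had an SE of 1.06 (limma adjusted p = 0.0291). The gene lies at chr8:75109569-75128439 (GRCm38, + strand). This call was lost without WT 1 (limma adjusted p = 0.0759), WT 2 (0.0721), 5xFAD 2 (0.165) or 5xFAD 3 (0.0943), with edgeR (0.0759), and when only genes with reads in both genotypes were fitted (0.0536).

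Orc3, a subunit of the origin recognition complex, had 844, 818 and 859.7 normalised counts in the 5xFAD libraries, against 1968, 1399 and 1710 in the WT libraries. The 5xFAD values were close to each other and all below the WT values, with means of 840.5 ± 20.9 in 5xFAD and 1692 ± 285 in WT cells (SD, n = 3 each). The log2 fold change was -0.995 (95% interval -2.79 to 0.80; limma adjusted p = 0.680); with the gene's own spread alone, the adjusted p of the linear model was 0.138. Mcm10, a factor that helps to start the helicase, had 56.4, 57.1 and 42.5 normalised counts in the 5xFAD libraries, against 191, 40.9 and 81.4 in the WT libraries. Its groups overlapped, and its log2 fold change of -0.73 (95% interval -2.83 to 1.37) did not pass.

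Of the 5 polymerase, clamp loader and nucleotide genes tested, 1 fell and none rose, beside 4.48% lower and 1.88% higher of all genes tested. With 5 genes this describes Rrm1 and not the role. Rrm1, the large subunit of ribonucleotide reductase, which makes the building blocks of DNA, had 0, 6.08 and 0 normalised counts in the 5xFAD libraries, against 12.3, 147 and 88.5 in the WT libraries. Only 5 reads were found in 5xFAD cells, all in 5xFAD 2, against 273 in WT cells. The log2 fold change was -4.87 (SE 1.04; limma adjusted p = 1.31e-04), and it was -5.90 without WT 1, -4.17 without WT 2 and -5.81 without 5xFAD 2. It also depends on the pseudocount, with -3.26 at 5 and -5.55 at 0.5. The gene lies at chr7:102441695-102469771 (GRCm38, + strand), where Gm45399 overlaps it on the same strand. Of its 31-base words, 5.35% also occur in other genes.

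Rrm2b, the small reductase subunit that p53 induces and that serves resting cells, had 1879, 622 and 295 normalised counts in the 5xFAD libraries, against 179, 99.5 and 1102 in the WT libraries. The groups overlapped, and the log2 fold change of 1.37 (95% interval -0.62 to 3.36) did not pass (limma adjusted p = 0.570). It was 2.38 without WT 3, 0.66 without WT 2 and 0.66 without 5xFAD 1. Of its 31-base words, 14.4% occur in other genes, so its count is uncertain. Pola1, the catalytic subunit of the polymerase that primes DNA synthesis, had 147, 148 and 1956 normalised counts in the 5xFAD libraries, against 439.7, 194 and 228 in the WT libraries. The library 5xFAD 3 alone was high, and the log2 fold change of 0.38 turned to -0.86 without it. The clamp loader subunits Rfc2 and Rfc5 had log2 fold changes of 1.41 and -0.44 and did not pass; 14.6% of the 31-base words of Rfc2 are shared with its neighbour Lat2, and 9.93% of those of Rfc5 with Wsb2, so these counts are uncertain.

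**Figure D2:**
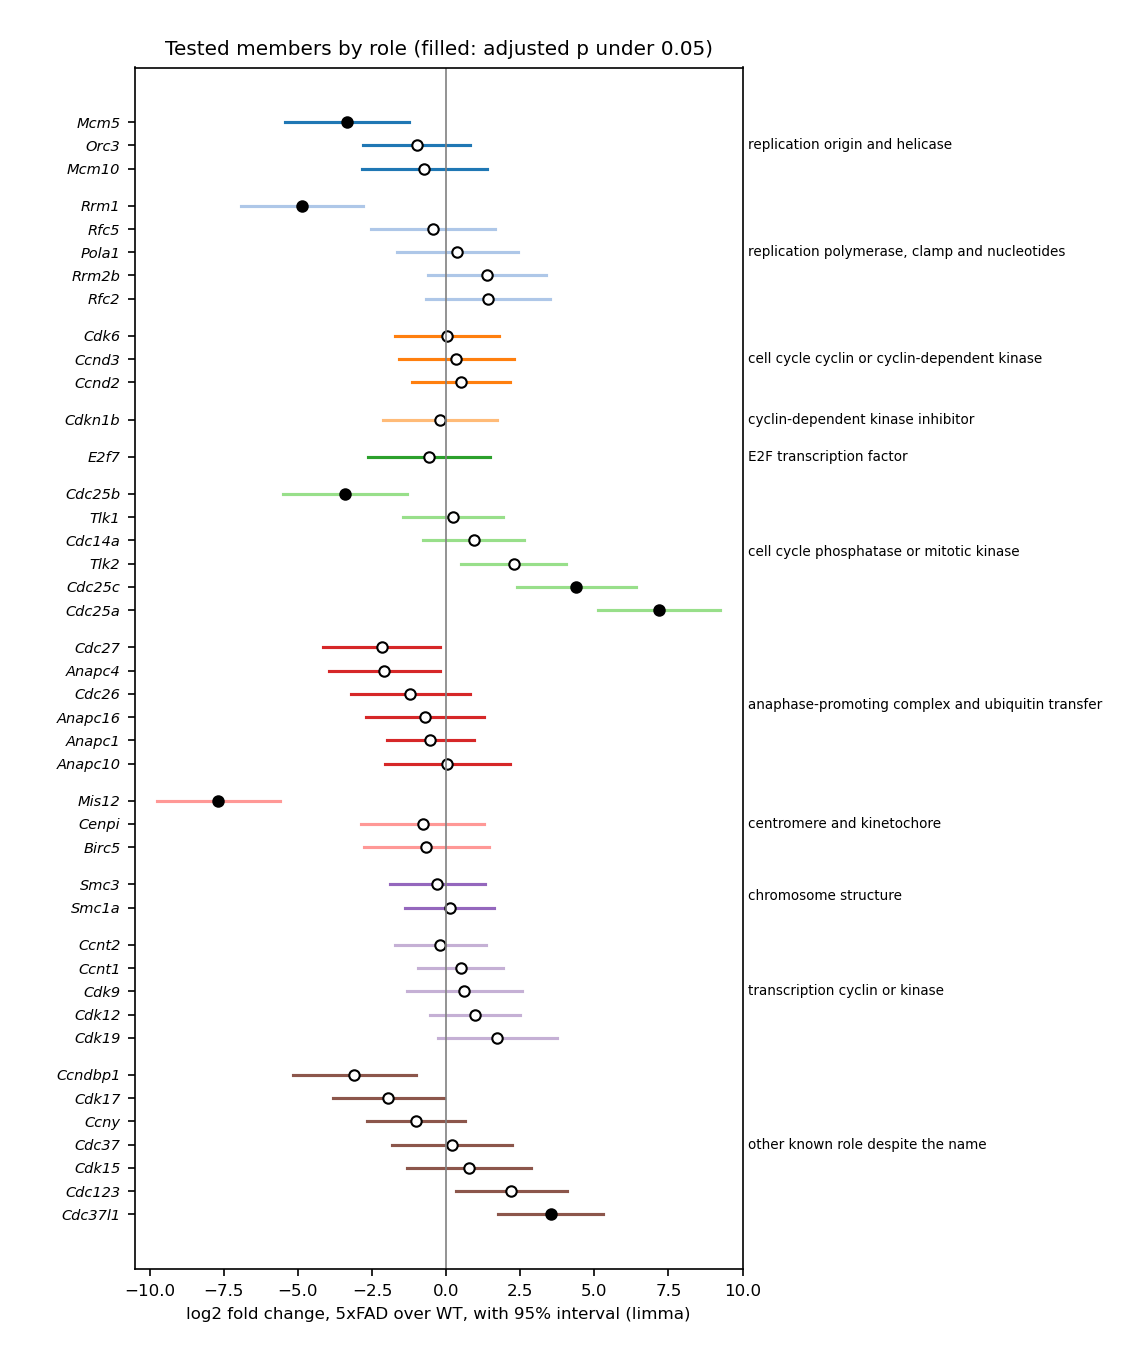
Log2 fold change (5xFAD over WT) of the 42 tested members on the horizontal axis, with 95% intervals from limma, grouped by role; filled points passed at an adjusted p under 0.05. Cdc25a plots at 7.19 and Mis12 at -7.69, at a pseudocount of 1 that sets both positions, while intervals of most members that did not pass span 0.

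Among centromere and kinetochore genes, 1 of 3 tested fell and none rose, beside 4.48% lower and 1.88% higher of all genes tested. With 3 genes this describes Mis12 and not the role. Mis12, a subunit of the complex that links centromeres to spindle microtubules, had 0.829, 0 and 0 normalised counts in the 5xFAD libraries, against 196, 79.0 and 1014 in the WT libraries. A single read was found in 5xFAD cells, against 1469 in WT cells, where WT 3 was the highest. The ratio of WT over 5xFAD was 1194 with a 95% counting interval from 214 to 47192. With limma, Mis12 had a log2 fold change of -7.69 (SE 1.06; limma adjusted p = 9.14e-11), which as a fold lies under that interval and depends on the pseudocount (-5.62 with 5, -8.50 with 0.5); it was -9.89 with edgeR and -10.09 with DESeq2. Without WT 3 the ratio was 392 and the log2 fold change -6.68, without WT 2 the log2 fold change was -8.51, and without 5xFAD 1 the level was at least 225-fold lower in 5xFAD cells. The start of the gene (chr11:71019611-71027371, GRCm38, + strand) overlaps Derl2 on the opposite strand, and 6.44% of its 31-base words are shared with Derl2.

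Among the partner subunits of Mis12, Dsn1 and Nsl1 were picked after their values were seen. Dsn1 had 209, 23.1 and 65.0 normalised counts in the 5xFAD libraries, against 9.04, 12.1 and 3.54 in the WT libraries, so every 5xFAD library was above every WT library. Its log2 fold change of 3.04 missed the threshold (limma adjusted p = 0.0612) and passed it with edgeR (adjusted p = 0.0447) and DESeq2 (adjusted p = 0.00417). It was 2.24 without 5xFAD 1 (limma adjusted p = 0.370) and 2.60 without WT 3 (0.264). Nsl1 had 112, 118 and 21.2 normalised counts in the 5xFAD libraries, against 74.8, 35.3 and 186 in the WT libraries, and its groups overlapped.

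Birc5, which encodes survivin, a part of the complex that corrects spindle attachments, had 69.7, 153 and 18.6 normalised counts in the 5xFAD libraries, against 84.6, 102 and 95.5 in the WT libraries. The 3 WT values were close together and lay inside the wider range of the 5xFAD values. The log2 fold change was -0.67 (95% interval -2.77 to 1.43) and changed sign to 0.14 without 5xFAD 3. Cenpi, a protein of the inner kinetochore, had 121, 191 and 57.0 normalised counts in the 5xFAD libraries, against 194, 126 and 287 in the WT libraries, with overlapping groups and a log2 fold change of -0.79. The proliferation markers Mki67, Top2a and Pcna, like Cdk1, Cdk4, Ccnd1, Cdkn1a and Cdkn1c, were not among the genes in the deposited table, so their levels are not known here.

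Cdc37l1, the third gene that rose, is a relative of the kinase co-chaperone Cdc37 and carries the Cdc name without a direct role in division. It had 2110, 5006 and 9604 normalised counts in the 5xFAD libraries, against 426, 793 and 196 in the WT libraries. Every 5xFAD library was above every WT library, and it was the called member with the most reads (13901 in 5xFAD and 1593 in WT cells). The means were 5574 ± 3779 in 5xFAD and 472 ± 301 in WT cells (SD, n = 3 each). The log2 fold change of 3.52 had an SE of 0.90 (limma adjusted p = 0.00234). The call was lost without 5xFAD 3 (log2 fold change 3.00, limma adjusted p = 0.0684). The gene overlaps Ak3 on the opposite strand and shares 3.26% of its 31-base words with it, so some reads may belong to Ak3. Cdc37 itself had a log2 fold change of 0.19 (95% interval -1.83 to 2.21).

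The promoters of 5 of the 7 called members, 1 that rose and the 4 that fell, are shown for the known cell cycle motifs in them. Those of Cdc25c and Cdc37l1, which also rose, are not shown, so the 5 do not stand for all called members. The sequences are the 250 bases before the start in RefSeq (GRCm38.p6, all + strand), at chr9:109875329-109875578 for Cdc25a, which rose, and at chr2:131186698-131186947 for Cdc25b, chr8:75109259-75109508 for Mcm5, chr7:102441445-102441694 for Rrm1 and chr11:71019361-71019610 for Mis12, which fell. Capitals mark matches on either strand to an E2F motif (TTTCCCGC, TTTCGCGC, TTTGCCGC or TTTGGCGC), to the CHR motif of mitotic genes (TTTGAA) or to the CCAAT box (CCAAT).
Cdc25a: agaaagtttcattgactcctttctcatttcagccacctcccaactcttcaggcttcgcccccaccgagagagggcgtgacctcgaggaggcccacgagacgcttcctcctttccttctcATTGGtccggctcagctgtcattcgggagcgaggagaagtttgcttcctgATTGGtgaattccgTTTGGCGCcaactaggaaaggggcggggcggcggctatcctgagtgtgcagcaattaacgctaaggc
Cdc25b: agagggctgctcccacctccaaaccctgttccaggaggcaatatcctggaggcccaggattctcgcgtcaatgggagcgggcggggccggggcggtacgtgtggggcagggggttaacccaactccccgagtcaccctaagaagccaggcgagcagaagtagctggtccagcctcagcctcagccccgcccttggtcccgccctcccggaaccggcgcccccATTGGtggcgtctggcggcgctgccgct
Mcm5: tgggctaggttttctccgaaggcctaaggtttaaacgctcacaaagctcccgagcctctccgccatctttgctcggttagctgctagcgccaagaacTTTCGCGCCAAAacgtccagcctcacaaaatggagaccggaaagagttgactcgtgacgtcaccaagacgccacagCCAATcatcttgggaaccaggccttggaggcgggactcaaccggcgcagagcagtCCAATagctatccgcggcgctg
Rrm1: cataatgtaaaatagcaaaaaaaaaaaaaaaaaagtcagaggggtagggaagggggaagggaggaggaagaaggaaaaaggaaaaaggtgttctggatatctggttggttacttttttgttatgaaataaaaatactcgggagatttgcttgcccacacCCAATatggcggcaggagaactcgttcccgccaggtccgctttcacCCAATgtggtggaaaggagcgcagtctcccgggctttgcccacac
Mis12: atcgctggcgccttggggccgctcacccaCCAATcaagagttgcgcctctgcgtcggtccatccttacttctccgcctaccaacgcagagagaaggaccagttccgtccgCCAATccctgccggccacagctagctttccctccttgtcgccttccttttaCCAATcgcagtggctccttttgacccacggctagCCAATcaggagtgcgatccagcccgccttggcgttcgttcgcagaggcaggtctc
An E2F match stood at -67 to -60 from the start of Cdc25a, which rose, and a pair that overlap by 4 bases, at -153 to -146 and -149 to -142, in Mcm5, which fell. The windows of Cdc25b, Rrm1 and Mis12 held no match to these 4 words. None of the 5 windows shown held the CHR letters, which do occur for Cdc37l1, not shown. The CCAAT box was found once in Cdc25b, 2 times each in Cdc25a, Mcm5 and Rrm1, and 4 times in Mis12. Of all 32851 RefSeq promoter windows of this length, 1.86% held an E2F match, 16% the CHR letters and 33.8% a CCAAT box. Of the 42 windows found for 36 members, 5 held an E2F match (Cdc25a, E2f7, Mcm5, Orc3 and Pola1), 4 the CHR letters (those of Anapc16, Cdc14a and the called gene Cdc37l1) and 19 a CCAAT box.

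None of the 6 members of the anaphase-promoting complex passed the test. Of the 6, 5 had a log2 fold change below 0 (median -0.97), among them Anapc1, whose sign turned without 5xFAD 3. Of all 4152 genes tested, 2103 lay below 0. Groups did not overlap for 2 of the 6, beside 18.1% of all genes tested, and 6 genes are too few to describe the complex. Cdc27, a subunit that receives the activators of the complex, had 217, 209 and 325 normalised counts in the 5xFAD libraries, against 2442, 393 and 1422 in the WT libraries. The groups did not overlap, although WT 2 was close to the highest 5xFAD library (log2 fold change -2.17, 95% interval -4.14 to -0.21; limma adjusted p = 0.224). DESeq2 on the recovered reads put it past the threshold (adjusted p = 0.0165), while with limma the log2 fold change was -2.92 without WT 2 and -1.60 without WT 1.

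Anapc4, a scaffold subunit, had 236, 401 and 754 normalised counts in the 5xFAD libraries, against 1354, 2180 and 1877 in the WT libraries. Every 5xFAD library was below every WT library (log2 fold change -2.09, 95% interval -3.97 to -0.21; limma adjusted p = 0.217). Anapc1, the largest scaffold subunit, had 3159, 5867 and 1047 normalised counts in the 5xFAD libraries, against 4146, 5178 and 2782 in the WT libraries. Its groups overlapped, with a log2 fold change of -0.54, and 5xFAD 3 was the low library. Cdc26, Anapc16 and Anapc10 had log2 fold changes of -1.21, -0.72 and 0.04, and their groups overlapped.

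**Figure D3:**
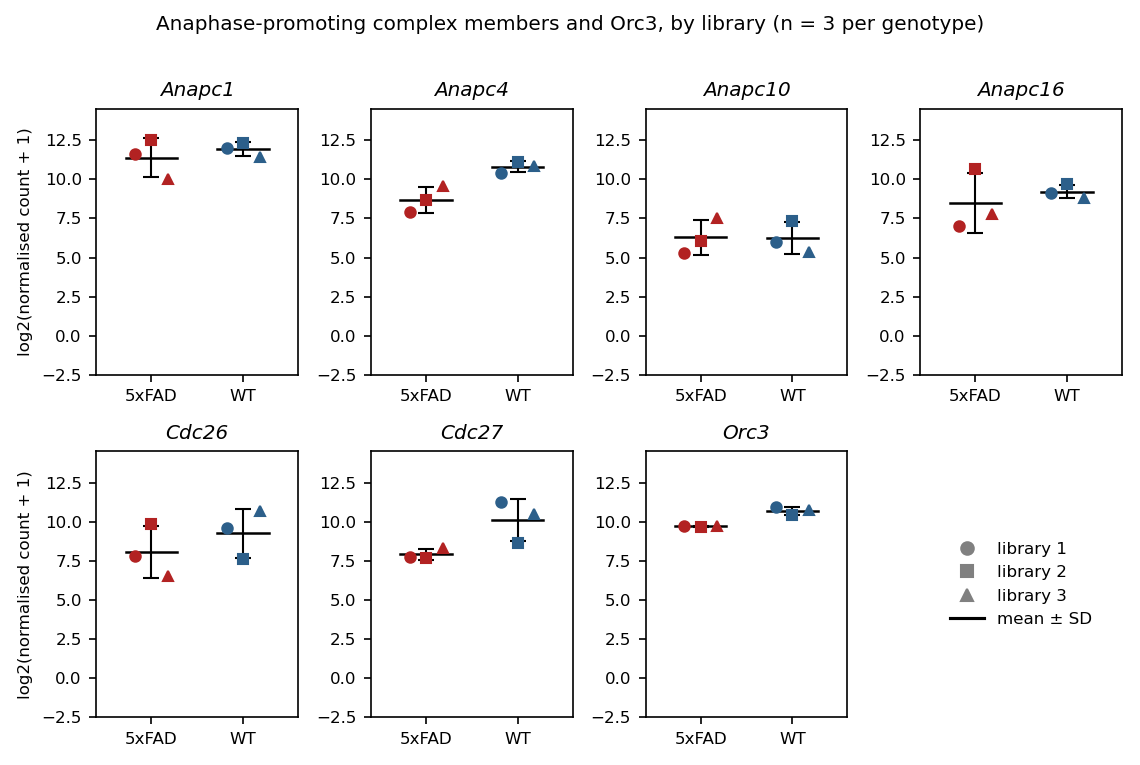
Normalised counts of the 6 anaphase-promoting complex members and of Orc3, as log2(normalised count + 1), in each of the 3 5xFAD and 3 WT libraries; marks are libraries, and bars are the mean ± SD of the log2 values. The genotypes did not overlap for Anapc4, Cdc27 and Orc3, as for 18.1% of all genes tested, and none of the 7 genes passed the test.

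The other members of the phosphatase and kinase group did not pass. Tlk2, a kinase that acts on histone chaperones during S phase, had 3372, 3145 and 2226 normalised counts in the 5xFAD libraries, against 712, 947 and 303 in the WT libraries. All 5xFAD libraries were above all WT libraries, with means of 2915 ± 607 in 5xFAD and 654 ± 326 in WT cells (SD, n = 3 each; log2 fold change 2.28, 95% interval 0.51 to 4.06; limma adjusted p = 0.120, and 0.0246 with DESeq2). An antisense gene, 1700052K11Rik, shares 8.43% of its 31-base words. Its relative Tlk1 had 2784, 2982 and 723 normalised counts in the 5xFAD libraries, against 1466, 1028 and 2473 in the WT libraries, with overlapping groups and a log2 fold change of 0.23 that was below 0 without WT 2, 5xFAD 1 or 5xFAD 2. Cdc14a, a phosphatase of mitotic exit in yeast whose mammalian roles include cilia, had 670.2, 2418 and 7841 normalised counts in the 5xFAD libraries, against 1045, 1829 and 963 in the WT libraries. The high value of 5xFAD 3 stood apart, and without that library the log2 fold change of 0.93 became 0.055.

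None of the 3 cyclin and kinase genes of the early cycle that were tested passed in either direction. Ccnd2, a D-type cyclin that links growth signals to the cycle, had 4072, 2389 and 1211 normalised counts in the 5xFAD libraries, against 1944, 1920 and 1085 in the WT libraries (log2 fold change 0.51, 95% interval -1.14 to 2.17). Cdk6, a kinase that works with D-type cyclins, had 2431, 2948 and 443 normalised counts in the 5xFAD libraries, against 1212, 5777 and 428 in the WT libraries. Its spread within each genotype was far larger than the difference, and the log2 fold change of 0.03 changed sign when libraries were scaled to the same total (-0.09), with edgeR (-0.38) and with DESeq2 (-0.35). Ccnd3 had a log2 fold change of 0.35, and Ccne1, the cyclin of S phase entry, was at most 13.4 normalised counts in any library and was not tested.

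The inhibitor Cdkn1b, which encodes p27 and holds cells in rest, had 1529, 937 and 206 normalised counts in the 5xFAD libraries, against 408, 922 and 1194 in the WT libraries. The groups overlapped over nearly the whole range (log2 fold change -0.20, 95% interval -2.12 to 1.71), and the sign turned with edgeR (0.05) and DESeq2 (0.08). E2f7, a repressor of E2F targets, had 189.9, 74.2 and 297 normalised counts in the 5xFAD libraries, against 149, 257 and 372 in the WT libraries (log2 fold change -0.58, 95% interval -2.65 to 1.48).

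Smc1a and Smc3, the paired arms of the cohesin ring that holds sister chromatids together and folds chromatin in resting cells, had the highest levels per length of all members, with means of 604 and 453 normalised counts per kb of merged exons. Smc1a had 5720, 5944 and 824 normalised counts in the 5xFAD libraries, against 2947, 2414 and 3069 in the WT libraries. Smc3 had 1542, 1166 and 4514 normalised counts in the 5xFAD libraries, against 1651, 2362 and 3842 in the WT libraries. The library 5xFAD 3 was the lowest of the 6 for Smc1a and the highest for Smc3, and the log2 fold changes of 0.12 and -0.29 did not pass. Both changed sign when some single libraries were left out, and Smc1a also when libraries were scaled to the same total (-0.0007).

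On the same scale per kb, Ccnt1, Ccny and Cdc123 came next at 415, 389 and 348, and the lowest levels were those of Ccne1 at 2.35, Rrm1 at 3.84 and Cdc25c at 4.29. Of the 7 called members, Cdc37l1 was 9th of the 43 in this order and Mis12 27th, and the other 5 held places 37, 39, 40, 41 and 42. These levels average both genotypes, so for a called member they include the genotype with few or no reads.

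**Figure D4:**
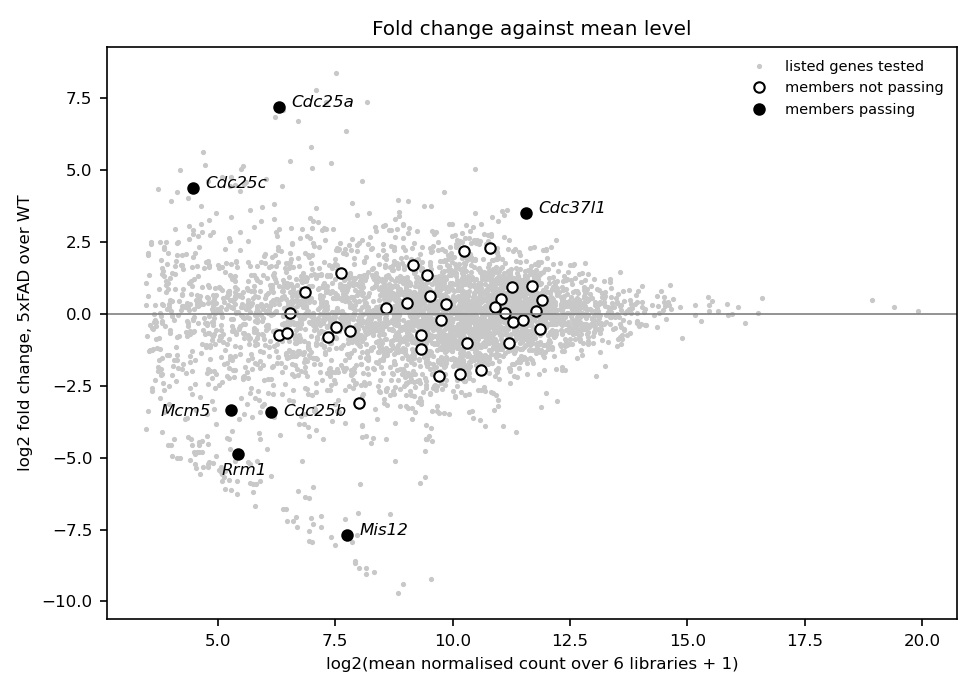
Log2 fold change (5xFAD over WT) against log2(mean normalised count over the 6 libraries + 1) for the 4152 genes tested (grey), with the 35 members that did not pass as open and the 7 that passed as filled circles. Cdc37l1 is the called member with the highest mean level and Rrm1, Cdc25c and Mcm5 are those with the lowest.

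The cyclins and kinases of transcription, which carry Ccn and Cdk names but act on RNA polymerase II, did not pass. Of the 5 tested, 4 had a log2 fold change above 0 (median 0.62), beside 2049 of all 4152 genes tested. Ccnt1, the cyclin partner of Cdk9 in the elongation factor P-TEFb, had 2342, 4407 and 7070 normalised counts in the 5xFAD libraries, against 2932, 3381 and 2672 in the WT libraries (log2 fold change 0.49). Cdk12, a polymerase kinase needed for long genes, had 5018, 4144 and 2992 normalised counts in the 5xFAD libraries, against 1659, 4910 and 1007 in the WT libraries (log2 fold change 0.97). Both overlapped between the genotypes, as did Ccnt2 (-0.19), Cdk9 (0.62) and the Mediator kinase gene Cdk19 (1.72).

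Beside Cdc37l1, 6 members have a known role elsewhere, and none of them passed with limma. Cdc123, which helps to assemble a translation initiation factor, had 1310, 1582 and 2982 normalised counts in the 5xFAD libraries, against 194, 686 and 476 in the WT libraries. All 5xFAD libraries were above all WT libraries (log2 fold change 2.20, 95% interval 0.32 to 4.08; limma adjusted p = 0.180, and 0.0414 with DESeq2). Ccndbp1, a protein that binds cyclin D, had 153, 30.4 and 19.9 normalised counts in the 5xFAD libraries, against 209, 650.0 and 466 in the WT libraries. All 5xFAD libraries were below all WT libraries (log2 fold change -3.10, 95% interval -5.18 to -1.01; limma adjusted p = 0.0539), and the gene passed with DESeq2 (adjusted p = 0.0256), when libraries were scaled to the same total (0.0446), and without 5xFAD 1 (0.0221).

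Ccny, a cyclin bound to the plasma membrane, had 2940, 609 and 1410 normalised counts in the 5xFAD libraries, against 2811, 1523 and 4921 in the WT libraries, with overlapping groups (log2 fold change -1.02). Cdk17 and Cdk15, kinases related to Cdk5 and Cdk14, had log2 fold changes of -1.96 and 0.78, and their groups overlapped. Genes whose groups did not overlap and whose log2 fold change was at least 1 in size but which did not pass were thus Cdc27, Anapc4, Tlk2, Cdc123 and Ccndbp1. With the 7 called members they make 28.6% of the 42, against 16.6% of all genes tested whose groups lay apart by at least this much.

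Levels of single members varied between the libraries of a genotype. The highest library exceeded the lowest by a median factor of 4.57 in 5xFAD and 3.11 in WT libraries, computed on the normalised count + 1, and by at least 10 for 6 members in each genotype. The median SD of the log2 level was 1.14 in 5xFAD and 0.84 in WT libraries for the members, beside 1.03 and 0.95 for all genes tested. The library 5xFAD 3 held the highest value of 11 of the 42 members, and the other 5 libraries held it for 5 to 8 each. The lowest value was in 5xFAD 1 for 10 members, in 5xFAD 3 for 9, and in each other library for 3 to 8.

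Genes of the same pathways that the symbol rule leaves out were called at about the background share. Of 175 symbols in 6 lists, 34 were listed and tested, 1 rose and 1 fell, which is 5.88% of them beside 6.36% of all genes tested, and their median log2 fold change was 0.09. Ska2, a part of the complex that couples kinetochores to microtubule ends, fell, with 49.8, 8.51 and 11.9 normalised counts in the 5xFAD libraries, against 51.8, 464 and 658 in the WT libraries (log2 fold change -3.78; limma adjusted p = 0.00945). Nusap1, a spindle microtubule protein, rose, with 45.6, 51.1 and 224 normalised counts in the 5xFAD libraries, against 0.822, 18.6 and 17.7 in the WT libraries (log2 fold change 3.23; limma adjusted p = 0.0400).

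Both calls were lost when some single libraries were left out. Ska2 was lost without WT 2 (log2 fold change -3.34), WT 3 (-3.09), 5xFAD 2 (-3.30) or 5xFAD 3 (-3.52), and was at -4.91 without WT 1 and -4.51 without 5xFAD 1. Nusap1 was lost without WT 1 (2.09) or 5xFAD 3 (2.50), with edgeR (adjusted p = 0.0925), with a pseudocount of 5 (limma adjusted p = 0.0577), with reads required in both groups (0.0678), with the same total per library (0.0533) and with 1 prior variance for all genes (0.0518). None of the 7 other replication genes tested passed, the highest in level being Supt16, a histone chaperone subunit (-0.26), and Mcmbp, a binding partner of the MCM proteins (0.97). The 7 other cohesin and condensin genes did not pass, and the cohesin loader Nipbl and the cohesin subunit Stag1 had log2 fold changes of 0.10 and 0.07.

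The cullins Cul4a (-0.83) and Cul1 (0.78), scaffolds of ubiquitin ligases, led the RB and G1/S list in level, and none of its 4 tested genes passed. Of the 2 checkpoint genes tested, Mdm2, the ligase that limits p53, had 4518, 3081 and 3435 normalised counts in the 5xFAD libraries, against 1581, 625 and 2544 in the WT libraries. Its groups did not overlap, but the log2 fold change of 1.42 did not pass (limma adjusted p = 0.404); the other, Rad1, had a log2 fold change of 0.40. None of the 4 other cyclins passed, with log2 fold changes from -2.49 for Ccng2 to 1.64 for Ccng1, the p53 target.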

How the data were processed

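RNA had been extracted from sorted cells with a PicoPure kit and linearly amplified, per the labels' protocols. FastQC, Trimmomatic, Salmon, DESeq2 and the build mm10 are named in the submitters' processing notes, with no versions given in the sources used here. The deposited table holds normalised counts (signal), whose making the sources do not describe; in each library, division by the value of 1 read gave whole reads for 100% of values within 1e-06. Strand use in counting is not given in the sources used here.

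Members were chosen by symbol, and members and gene lists were chosen with earlier results of these data known. The 5xFAD and WT libraries were compared with limma 3.58.1 (R 4.3.3) on log2(normalised count + 1), with a variance trend on level, for genes with a mean of at least 10, and p-values were adjusted over all 4152 genes by Benjamini-Hochberg. For a gene with few reads in 1 genotype, the fold change depends on the pseudocount. The prior outweighed each gene's own spread wholly. edgeR 4.0.16 and DESeq2 1.42.0 on the recovered reads, other filters, pseudocounts and scalings, and leaving out each library were alternatives. Counting intervals (95%, exact) and floors of 3 reads over a group cover counting error only. Each library is a pool of mice, so no p-value measures the spread between single mice. In the main fit, limma p-values and intervals rest on a spread between pools typical of a gene's level, not on the gene's own. Values per library are given for called members and for members whose groups did not overlap with a log2 fold change of at least 1 in size. They are also given for the highest 2 in level of each role. Of a list of 10 markers, drivers and inhibitors of division, the 2 in the deposited table, Birc5 and the inhibitor Cdkn1b, are given too. Others named were chosen after their values were seen. Positions and lengths are from GENCODE on GRCm38, and promoters and motifs from RefSeq.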

Additional observations from a re-analysis of the deposited data

How the results depend on the processing

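The 7 called members kept their direction under every alternative that gave them a value, and 111 of their 128 values also stayed past the threshold. Much of this was fixed in advance. Their groups did not overlap, so leaving out a library or changing the pseudocount or filter could not turn a direction. Using 1 prior variance, no moderation, a replicate block or a threshold of 0.1 leaves the log2 fold change itself unchanged. Only the other scalings, edgeR and DESeq2 could have turned a direction. The threshold of 0.1 could not lose a call. The counts of all genes called higher and lower were 49 and 116 with a mean of at least 50, and 3 and 13 without moderation; the count higher was 163 with DESeq2 and 134 at an adjusted p under 0.1. Members called lower numbered 2 with a mean of at least 50, where Mcm5, Rrm1 and Cdc25c are not tested. Without moderation 1 member was called higher and 0 lower, and DESeq2 called 5 higher. Of the other pathway genes, 0 were called higher with reads required in both groups, with the same total per library and without moderation, 0 were called lower without moderation, and 2 were called higher with DESeq2 and at an adjusted p under 0.1; the cause was not tested. With the same total per library the median over all genes was -0.14 on the log2 scale, and Cdk6 (-0.0933) and Smc1a (-0.0007) changed sign. Cdk6 and Cdkn1b changed sign with edgeR (-0.38 and 0.0507) and with DESeq2 (-0.35 and 0.0809).

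Leaving out each library in turn, genes called ran from 54 to 85 higher and 143 to 192 lower, members from 1 to 3 higher and 2 to 4 lower, and other pathway genes from 0 to 2 higher and 0 to 1 lower. The difference in genes without reads ran from 55.5 to 86.0. Signs turned within these log2 ranges: Anapc1 -1.10 to 0.14, Birc5 -1.35 to 0.14, Cdk6 -0.85 to 1.03, Cdkn1b -0.80 to 0.64, Pola1 -0.86 to 1.00, Smc1a -0.36 to 1.06, Smc3 -0.88 to 0.10, Tlk1 -0.13 to 0.89 and Nsl1 -0.83 to 0.53. Without a change of sign, Ccnd2 ran from 0.09 to 0.97, Ccnt1 from 0.11 to 0.90, Cdk12 from 0.47 to 1.62, Ccny from -1.57 to -0.44, Cenpi from -1.19 to -0.33, E2f7 from -1.02 to -0.03, Mcm10 from -1.26 to -0.16, Ccndbp1 from -3.96 to -2.52 and Cdc14a from 0.055 to 1.83. Libraries with the same number did not deviate together (correlations 0.00247, -0.0157 and -0.0126), and with a replicate block 80 genes were called higher and 190 lower, and 3 members higher and 5 lower. With few reads, as for Rrm1 (5 in 5xFAD) and Mis12 (1 in 5xFAD), counting error limits the size of a fold.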
